A study of Mus musculus with 3 samples.

Results

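Narrow L1 peaks are the 944 peaks of an L1 RNA ChIRP library that lie on chromosomes 1 to 19 and measure less than 2000 bp from start to end. They made up 4.29% of the 21985 peaks on these chromosomes (95% binomial interval 4.03 to 4.57), out of 24666 peaks in the whole list. The limit was set at the lower end of the 2 to 5 kb to which the chromatin had been sonicated, so these regions are shorter than the stated fragment lengths. They were chosen by their measured widths, so widths are given as a description.

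The library was made from E14 ES cells, an established line of mouse embryonic stem cells grown with serum and leukemia inhibitory factor, with no further treatment named in the labels. ChIRP (chromatin isolation by RNA purification) pulls down an RNA from crosslinked chromatin with biotinylated probes, here 59 nt long, together with what is attached to it. The series also names a Malat1 ChIRP library and an input DNA library, which were not analysed here. With 1 library and no replicate, the spread between replicates is not known for any difference below, and none was tested. The labels state that genomic DNA was sequenced, while the protocol text has the retrieved RNA reverse transcribed, so a peak is a place where this library's reads gathered, and binding of L1 RNA there is not established. The read depth is unknown, and the list gives no height or score, so how strong a narrow peak was is not known.

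L1 is an abundant family of autonomous retrotransposons of mammals: it is transcribed into RNA, which its own proteins reverse transcribe and insert elsewhere in the genome. An intact mouse copy carries a promoter made of repeated monomers, a pair of open reading frames and a poly(A) tail. Most copies in the genome are shortened at the 5′ end, because reverse transcription starts at the tail and often stops early, and older copies are interrupted by later insertions. L1 sequence is dense in gene-poor, late replicating parts of the genome. Which L1 copies, other repeats or genes lie at the narrow peaks was not annotated here, because the coordinates are those of the mm9 build and no mm9 sequence or annotation was used.

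Narrow peaks formed the lower edge of the width distribution and no class of their own. The median narrow peak was 1618 bp wide (quartiles 1353 and 1833 bp). Together these peaks covered 1.47 Mb, or 1.02% of all bases under peaks on these chromosomes. Of the 944, only 55 were under 1000 bp, 312 measured 1000 to 1499 bp and 577 measured 1500 to 1999 bp. In steps of 250 bp the counts were 11 from 500 bp, 44 from 750 bp, 116 from 1000 bp, 196 from 1250 bp, 245 from 1500 bp and 332 from 1750 bp. The next steps, above the limit, held 407 and 446 peaks. The count thus went up at each step through the limit, without a gap or a dip at 2000 bp.

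**Figure D1:**
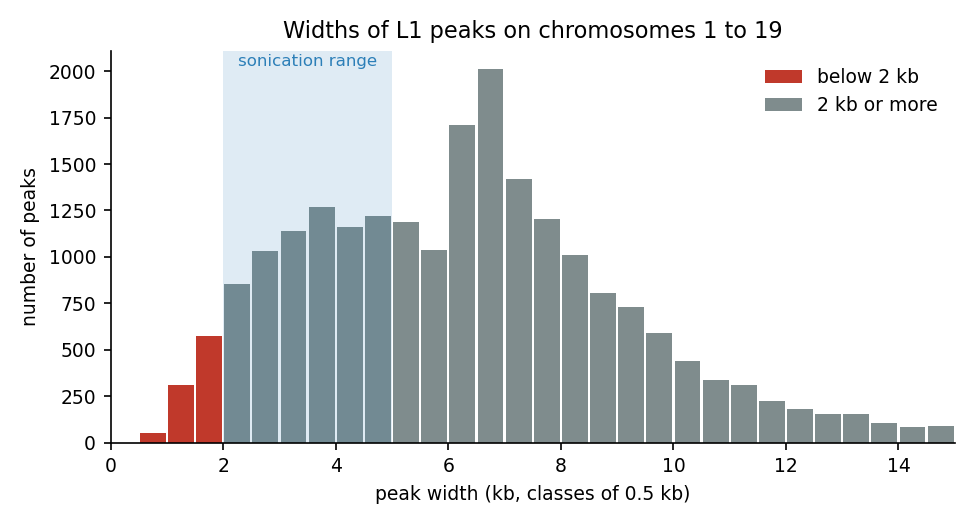
Number of L1 peaks on chromosomes 1 to 19 (vertical axis) by peak width in classes of 0.5 kb up to 15 kb (horizontal axis), with peaks below 2 kb in red, wider ones in grey and the sonication range shaded. The 944 red peaks form the left flank of the distribution, which goes on without a break across 2 kb.

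The narrowest members (mm9) show how varied the surroundings of such peaks were. The shortest, 566 bp, lay at chr5:97675856-97676421, and its nearest other peak, 24.7 kb away, was itself narrow at 1094 bp. The next, 589 bp at chr11:17510274-17510862, was 7421 bp from a peak of 3336 bp. A peak of 606 bp at chr17:94078788-94079393 was 50035 bp from a peak of 5796 bp. The other two of the 5 nearly touched a wide peak: 634 bp at chr7:17964261-17964894 was 152 bp from a peak of 4431 bp, and 642 bp at chr13:14895111-14895752 was 48 bp from one of 7567 bp. At the limit, the 3 members just inside measured 1999, 1999 and 1997 bp, and their nearest peaks were 3.98, 55.7 and 28.8 kb away. The 3 peaks just outside measured 2000, 2000 and 2001 bp, with nearest peaks 0.40, 126 and 30.2 kb away.

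The distance from a narrow peak to its nearest other peak, measured from edge to edge, fell into 2 ranges with few values between them. In the lower range, 261 of 944 narrow peaks (27.6%, 95% binomial interval 24.8 to 30.6) had another peak within 1 kb, against 3430 of 21041 wider peaks (16.3%, 15.8 to 16.8) and 16.8% of all peaks on these chromosomes. The difference between narrow and wider peaks was 11.3 percentage points (95% Newcombe interval 8.54 to 14.3), and it was above 0 on 18 of 19 chromosomes. Within this range the median gap was 88 bp (79 to 106). For wider peaks it was 96 bp (91 to 101), and for those of 2 to 4 kb 77 bp (69 to 83). A gap of at most 100 bp was found for 140 narrow peaks (14.8%), one of 100 to 250 bp for 81 (8.58%), and one of 250 to 1000 bp for only 40 (4.24%). The corresponding shares of wider peaks were 8.38%, 3.65% and 4.27%, so the higher share of narrow peaks lay at gaps up to 250 bp. These binomial intervals treat peaks as independent, which neighbouring peaks are not, and cover counting error only.

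The smallest gaps were of 2 to 4 bp. At chr1:98035706-98037098 a narrow peak of 1393 bp ended 2 bp short of a peak of 3530 bp. At chr17:36578359-36580249 a narrow peak of 1891 bp began 3 bp after one of 4709 bp. Gaps of 4 bp were found at chr8:41145687-41147555, chr9:6467219-6468875 and chr14:100778288-100780256, where the narrow peaks measured 1869, 1657 and 1969 bp and the neighbours 4016, 5870 and 4391 bp. On the assembled chromosomes no peaks of the list overlapped or touched. Whether such pairs are separate sites or 1 region divided by the peak caller was not tested.

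The upper range held the other 683 narrow peaks, and here they were farther from other peaks than wider ones. Their median gap was 26.8 kb (95% interval 24.2 to 31.6), against 22.2 kb (21.6 to 22.7) for the 17611 wider peaks with no peak within 1 kb, a difference of 4.64 kb (95% Price-Bonett interval 0.93 to 8.35). Gaps of 1 to 10 kb were found for 17.4% of narrow peaks (15.0 to 19.9) and 23.7% of wider ones (23.1 to 24.2). At the far end, 89 narrow peaks (9.43%, 7.64 to 11.5) had no other peak within 100 kb, close to the 8.92% of wider peaks and the 8.94% of all peaks. A narrow peak was therefore more often next to another peak at under 250 bp, and less often at 1 to 10 kb, than a wider one.

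**Figure D2:**
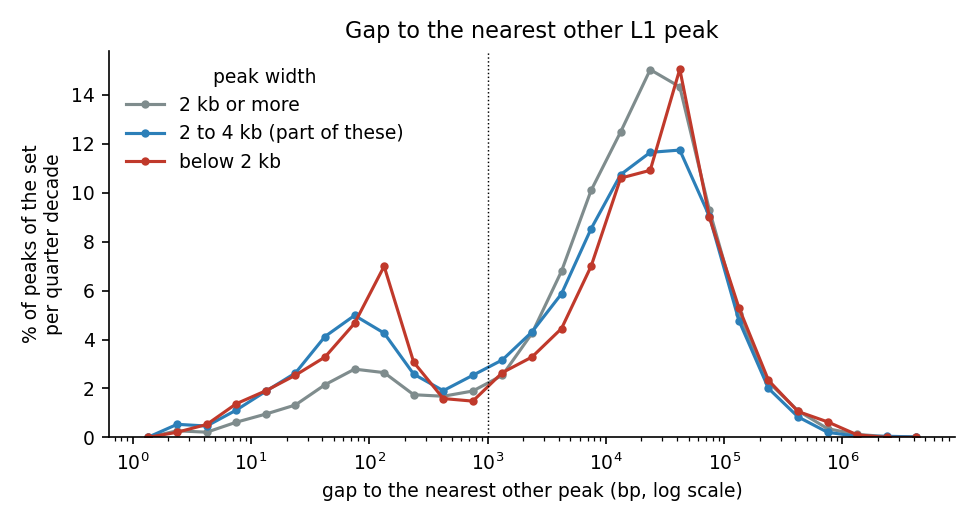
Share of peaks of each width set (vertical axis, % per step of 0.25 on the log10 scale) by the gap to the nearest other peak (horizontal axis, bp, log scale), for peaks below 2 kb (red), of 2 kb or more (grey) and of 2 to 4 kb (blue), with 1 kb dotted. All 3 sets show a low range around 100 bp and a high range around 10 to 100 kb. The low range holds 27.6% of the narrow peaks, 16.3% of all wider ones and 27.0% of those of 2 to 4 kb.

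Over both ranges together, narrow peaks more often had another peak within 10 kb, while the difference in median gap was not resolved. Over all 944 the median gap was 13.7 kb (11.0 to 15.7), against 15.9 kb (15.5 to 16.5) for wider peaks, a difference of -2.26 kb whose interval held 0 (-4.60 to 0.07). The difference in medians was below 0 on 10 of 19 chromosomes. The quartiles were 0.39 and 42.6 kb for narrow peaks and 3.90 and 42.0 kb for wider ones. Within 10 kb of another peak lay 425 narrow peaks (45.0%, 41.8 to 48.3), against 40.0% of wider peaks (39.3 to 40.6) and 40.2% of all peaks. This difference of 5.05 percentage points (1.84 to 8.31) was above 0 on 12 of 19 chromosomes. It turned once the close pairs were left out: among peaks with no other peak within 1 kb, the shares were 24% for narrow and 28.3% for wider peaks, a difference of -4.27 points (-7.39 to -0.86). Merging all peaks closer than 1 kb gave -5.08 points, with the same 164 of 683 narrow peaks, so it is no separate check on them. Within 50 kb, where the shares were 78.7% and 79.2%, the difference was -0.49 (-3.26 to 2.07).

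Close neighbours were not particular to peaks below 2 kb. Peaks from 2 kb up to, but not including, 4 kb had another peak within 1 kb in 27.0% of cases (25.7 to 28.4), so narrow peaks differed from this class by 0.61 percentage points, with an interval from -2.46 to 3.83. By width, the share within 1 kb was 16.4% below 1000 bp (9 of 55, 7.77 to 28.8), 27.6% at 1000 to 1499 bp, 28.8% at 1500 to 1999 bp and 30.4% at 2000 to 2499 bp. It then went down to 10.7% at 6 to 7.5 kb (9.88 to 11.6), and stood at 16.3% for peaks of 10 kb or more. Against the 6 to 7.5 kb class alone, the narrow peaks differed by 16.9 points (14 to 19.99). Within 10 kb the class of 2 to 4 kb stood higher than the narrow peaks, at 48.9%, a difference of -3.88 points (-7.37 to -0.36), and its median gap was shorter, 10.6 kb against 13.7 kb.

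**Figure D3:**
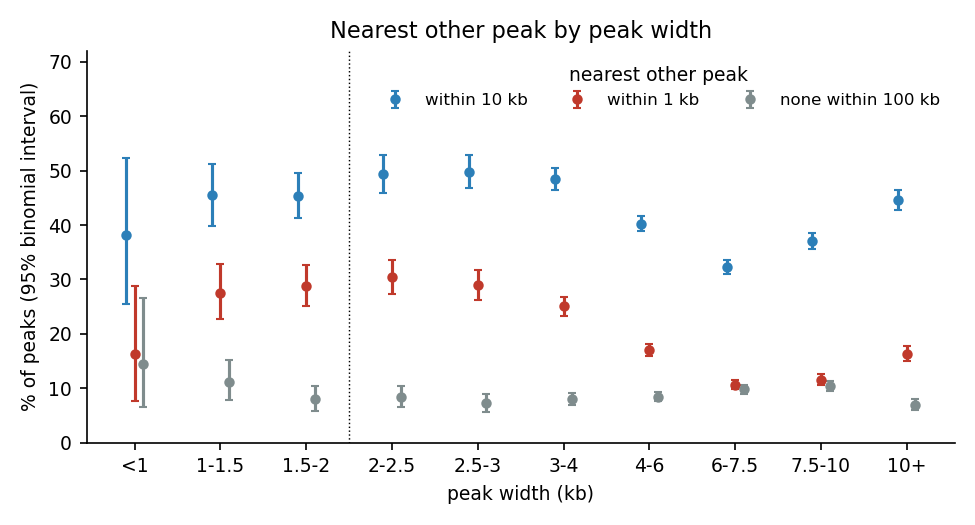
Share of peaks (vertical axis, %, bars are 95% binomial intervals) whose nearest other peak lies within 10 kb (blue), within 1 kb (red) or beyond 100 kb (grey), by peak width in kb (horizontal axis), with the 2 kb limit dotted. The red points of 1 to 3 kb lie between 27.6% and 30.4%, and the lowest is that of 6 to 7.5 kb at 10.7%.

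The peak next to a narrow one was itself narrower than usual. The median width of the nearest other peak was 5041 bp (4827 to 5403) for narrow peaks and 6344 bp (6309 to 6381) for wider ones, a difference of -1303 bp (-1589 to -1017), and it was below 0 on 19 of 19 chromosomes. Against all wider peaks this held in both ranges of distance. For the 261 narrow peaks with a close neighbour the neighbour's median width was 4324 bp (4016 to 4579), against 4957 bp (4819 to 5114) for the wider peaks with one. For the 683 others it was 5655 bp (5355 to 6040), against 6458 bp (6428 to 6488). Peaks of 2 to 4 kb had neighbour medians of 4196 bp (4027 to 4401) in the close range and 6173 bp (6029 to 6283) beyond it. In the close range a narrower neighbour was thus not particular to peaks below 2 kb. Over the width classes the neighbour's median went from 4871 bp next to peaks of 1000 to 1499 bp, through 5296 bp at 2000 to 2499 bp and 6326 bp at 6 to 7.5 kb, to 6999 bp next to peaks of 10 kb or more. The class below 1000 bp, with 55 peaks, had a neighbour median of 5243 bp (4238 to 6040). The narrow peaks' own median width was 1626 bp at gaps of at most 100 bp, 1623 bp at gaps of 10 to 100 kb and 1545 bp beyond 100 kb. The share with no peak within 100 kb was 14.5% below 1000 bp (8 of 55, 6.5 to 26.7), 11.2% at 1000 to 1499 bp (35 of 312, 7.94 to 15.3) and 7.97% at 1500 to 1999 bp (46 of 577, 5.90 to 10.5), with overlapping intervals.

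Narrow peaks seldom had another narrow peak as their nearest, though more often than wider peaks did. The nearest peak was narrow for 69 of 944 (7.31%, 5.73 to 9.16), against 4.43% of wider peaks (4.16 to 4.72) and 4.55% of all peaks. The difference of 2.88 percentage points (1.36 to 4.74) was above 0 on 10 of 19 chromosomes. Of these 69, 50 formed 25 pairs in which each was the other's nearest peak, so the peaks behind this share are not independent. Where the nearest peak lay within 1 kb, it was narrow for 20 of 261 narrow peaks (7.66%) and for 7.23% of wider ones. Where it lay farther, the shares were 7.17% (49 of 683) and 3.88%, so the difference lay there. Peaks of 2 to 4 kb had a narrow nearest peak in 5.75% of cases. Their difference of 1.56 points from the narrow peaks had an interval that held 0 (-0.11 to 3.51).

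A close neighbour lay on either side of a narrow peak equally often. It was on the side of lower coordinates for 131 and on that of higher coordinates for 130 of the 261. The neighbour was the wider of both in 250 of the 261 pairs, a count that the width limit largely sets, since 95.7% of all peaks here measure 2 kb or more. Only 19 (7.28%, 4.44 to 11.1) had a peak within 1 kb on both sides, much as among wider peaks with a close neighbour (6.53%). Following such steps of at most 1 kb from peak to peak, 215 of the 261 stood in a chain of 2 peaks, 39 in a chain of 3 and 7 in a chain of 4 or more, and the longest chain with a narrow peak held 5.

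The outer span of a narrow peak and its close neighbour is mostly the sum of their widths, and the narrow width chose the members. From the outer edge of one to the outer edge of the other the median was 6066 bp (5673 to 6282), the quartiles were 4797 and 7531 bp, and spans reached from 2453 to 17009 bp. Of the 261, 71 had an outer span of 6 to 7.5 kb (27.2%, 21.9 to 33.0). This interval held the 23.4% of all single peaks on these chromosomes that were that wide. The most frequent class of spans, 6 to 7 kb, held 56 of the 261, and the classes of 4 to 5 kb and 5 to 6 kb held 46 and 43. The wider peaks with a close neighbour had a median outer span of 11059 bp, and 14.5% of them fell between 6 and 7.5 kb. Since the span contains the peak's own width, which chose the members, this difference of 12.7 percentage points (7.47 to 18.5) is in part set by the choice, and peaks of 2 to 4 kb had 29.8% in the same range. The 5 pairs with the smallest gaps, named above, spanned 4925 bp on chromosome 1, 6603 bp on chromosome 17, 5889 bp on chromosome 8, 7531 bp on chromosome 9 and 6364 bp on chromosome 14. The last stands in a chain of 3 peaks that spans 10977 bp.

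**Figure D4:**
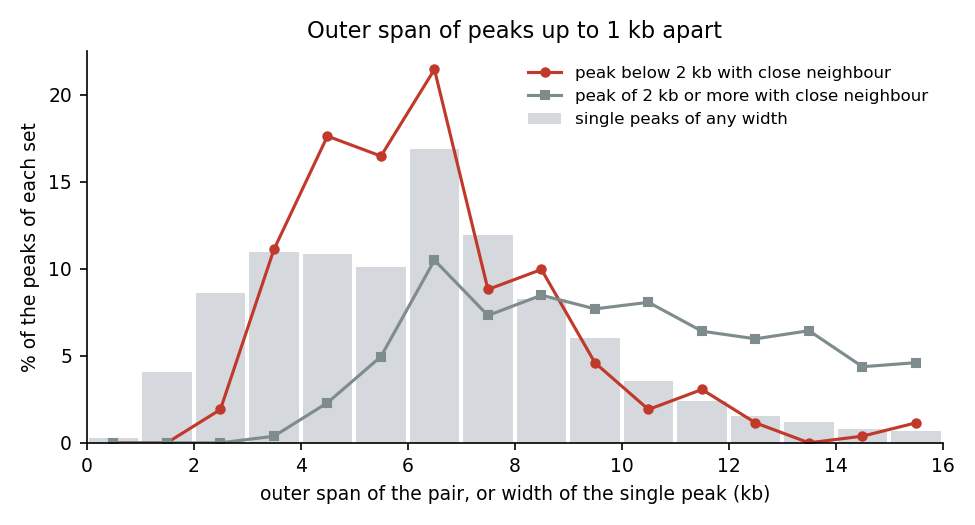
Outer span of a peak and its nearest peak up to 1 kb away (horizontal axis, kb, shown up to 16 kb) for 261 peaks below 2 kb (red) and 3430 peaks of 2 kb or more (grey line), with the widths of all single peaks as bars; the vertical axis is the % of each set per 1 kb. The red line is highest at 6 to 7 kb with 56 of 261, the class in which single peaks are also most frequent, while the grey line extends to wider spans.

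Narrow peaks were found on every autosome, from 8 on chromosome 19 to 97 on chromosome 1. As a share of the chromosome's peaks they ranged from 2.15% on chromosome 19 (0.93 to 4.19) to 6.13% on chromosome 7 (86 of 1402, 4.94 to 7.52), a difference of 3.98 percentage points (1.65 to 5.72) between chromosomes picked as the extremes. Chromosomes 8 and 17 followed chromosome 7 with 5.55% and 5.36%. On the low side stood chromosome 2 with 2.81% (42 of 1493, 2.03 to 3.78), chromosome 11 with 2.91%, chromosome 10 with 3.11% and chromosome 9 with 3.33%. The interval lay above the pooled 4.29% for chromosome 7 and below it for chromosomes 2 and 19. For the other 16 autosomes it held the pooled share. Which chromosomes stood at the ends depends on the limit: at 2500 bp the highest was chromosome 14 (10.5%) and the lowest chromosome 10 (5.34%), and at 1500 bp they were chromosomes 7 (2.85%) and 2 (0.87%). No adjustment was made for the number of chromosomes.

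**Figure D5:**
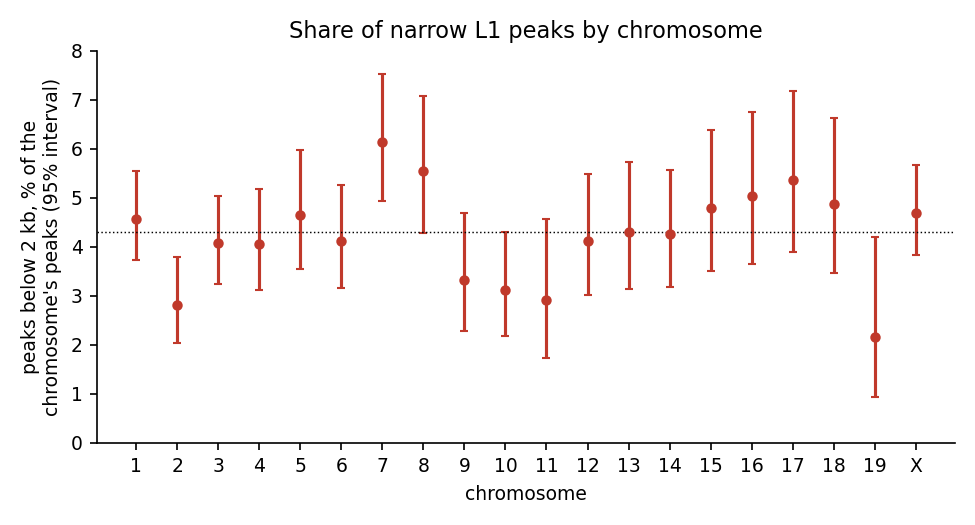
Peaks below 2 kb as a share of the L1 peaks of each chromosome (vertical axis, %, bars are 95% binomial intervals) for chromosomes 1 to 19 and X (horizontal axis), with the pooled autosomal share of 4.29% dotted. Chromosome 7 lies highest at 6.13%, and the intervals of chromosomes 2 and 19 lie below the line.

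Per Mb of the span between the first and the last peak, narrow peaks numbered 0.39 on the pooled autosomes, from 0.14 on chromosome 19 and 0.15 on chromosome 11 to 0.51 on chromosome 3 and 0.58 on chromosome 7. Across the 19 autosomes the density of narrow peaks and that of wider peaks had a Spearman correlation of 0.56, and the share of narrow peaks had one of 0.22 with the density of all peaks. These chromosomes share 1 library, and the values are descriptions. Chromosome 7, with the highest share of narrow peaks, had 9.48 peaks per Mb in all, fewer than chromosome 3 with 12.6.

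Beside the pooled 27.6%, the share of narrow peaks with another peak within 1 kb was highest on 3 chromosomes, picked after their values were seen: 43.2% on chromosome 15 (19 of 44, 28.3 to 59.0), 39.5% on chromosome 18 (15 of 38) and 37.7% on chromosome 8 (23 of 61), and lowest, 11.4%, on chromosome 10 (4 of 35, 3.20 to 26.7). These are the extremes of 19 chromosomes with few narrow peaks each. Within 10 kb, chromosome 10 had 22.9% of narrow peaks against 35.4% of wider ones, while chromosome 15 had 63.6% against 36.3%. These shares include the peaks within 1 kb by which both chromosomes were picked, so they are no second observation.

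On chromosome X, which is known to be rich in L1 sequence, 102 of 2177 peaks were narrow (4.69%, 3.84 to 5.66). This share differed from the autosomal one by 0.39 percentage points, with an interval from -0.46 to 1.4. The X peaks below 2 kb were spaced differently from the autosomal ones. Within 10 kb of another peak lay 26 of the 102 (25.5%, 17.4 to 35.1), which was below the autosomal narrow peaks (difference -19.5 points, -27.6 to -9.77) and also below the wider peaks of X, at 40.1% (difference -14.6 points, -22.4 to -5.13). Within 1 kb lay 16 of the 102 (15.7%, 9.24 to 24.2), below the autosomal narrow peaks (difference -12 points, -18.5 to -3.23). Of the wider X peaks 12.1% lay within 1 kb of another. Narrow X peaks differed from these by 3.59 points, with an interval that held 0 (-2.39 to 11.98). The median gap of the X narrow peaks was 23.4 kb (19 to 30.9), against 14.9 kb (13.9 to 15.9) for the wider ones.

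With the peaks as deposited, the share of narrow peaks in peak-poor bins was near that of all peaks. In bins of 1 Mb with at most 4 other peaks lay 92 of 944 (9.75%, 7.93 to 11.8), against 9.17% of wider peaks (8.78 to 9.57) and 9.19% of all peaks. The difference of 0.58 percentage points had an interval from -1.20 to 2.67 and was above 0 on 11 of 19 chromosomes. With peaks closer than 1 kb merged first, the shares were 13.2% and 10.7%, and the difference of 2.5 points had an interval above 0 (0.13 to 5.28). Merging also lowers the number of peaks per bin. Without merging, peaks with no other peak within 1 kb gave 1.73 points, with an interval that held 0 (-0.56 to 4.43). The median number of other peaks in the bin was 14 for both, with quartiles of 9 and 19 for narrow and 9 and 20 for wider peaks. At the dense end, narrow peaks were somewhat fewer: 227 of 944 (24%, 21.4 to 26.9) lay in bins with 20 or more other peaks, against 27.3% of wider peaks, a difference of -3.23 points (-5.92 to -0.34). Read the other way, narrow peaks made up 4.55% (3.69 to 5.55) of the 2021 peaks in bins with at most 4 others. They made up 3.80% (3.33 to 4.32) of the 5967 peaks in bins with 20 or more. These intervals overlap, and each held the pooled share of 4.29%.

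The shortest members had the highest share in peak-poor bins, though they are few. Of the 55 peaks below 1000 bp, 11 lay in peak-poor bins (95% interval of the share 10.4% to 33.0%), against 35 of 312 at 1000 to 1499 bp (11.2%) and 46 of 577 at 1500 to 1999 bp (7.97%). Peaks of 6 to 7.5 kb stood at 10.1% (9.31 to 11.0), and those of 7.5 to 10 kb at 10.5%, a value that the interval of the peaks below 1000 bp still held. With the limit at 1500 bp in place of 2000 bp, the difference between narrow and wider peaks in peak-poor bins was 3.4 points (0.37 to 7.20). Whether the interval of the difference in peak-poor bins held 0 therefore depended on the width limit and on the merging of close peaks. The value after merging still lay within the interval of the main difference.

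Over the genome, the 944 narrow peaks fell in 673 of 2419 bins (27.8%). Of these bins 480 held 1 narrow peak, 138 held 2, 37 held 3 and 18 held 4 or more. Only 8 narrow peaks (0.85%) were the sole peak of their bin, a share near the 0.74% of wider peaks. The bin with the most lay on chromosome 7 from 68000001 to 69000000, where 6 of 17 peaks were narrow, with widths of 1078 to 1991 bp. It was followed by chromosome 7 from 55000001 to 56000000 with 5 of 27, chromosome 15 from 33000001 to 34000000 with 5 of 21, and chromosome 17 from 91000001 to 92000000 with 5 of 10. A further 14 bins tied with 4 narrow peaks each. Within 1 kb of another peak lay 1 of the 6 narrow peaks of the first bin and 0, 2 and 2 of the 5 in each of the next 3.

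The 5 most isolated narrow peaks measured 1509 to 1942 bp. The peak at chr8:91287600-91289418, of 1819 bp, was 1.18 Mb from the nearest other peak, and that at chr16:90643840-90645781, of 1942 bp, was 999 kb away. Next came chr17:5661855-5663363 (1509 bp) at 762 kb, chr12:55003646-55005366 (1721 bp) at 705 kb and chr16:6614624-6616477 (1854 bp) at 680 kb. All 5 were the sole peak of their bin. The nearest peak of the first was only 2122 bp wide, and that of the last was itself narrow at 1823 bp, whereas the other 3 faced peaks of 4465 to 8425 bp. The largest gap of any wider peak was 6553 kb.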

How the data were processed

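The authors deposited 1 list of L1 peaks as plain positions on the mm9 build. Per the submitters' processing notes the tools included CASAVA, Bowtie2 2.2.2 and MACS 1.4.2, with no role or setting stated. The peak threshold, the use of the input and the handling of reads that map to several L1 copies are likewise not stated, and each can change how many narrow or closely spaced peaks are called. Width is end minus start; positions are printed from 1. Gaps run from edge to edge to the nearest peak of any width on the same chromosome (2 peaks had equal gaps on both sides; the lower one was taken). A peak belongs to the 1 Mb bin of its midpoint. Shares have exact (Clopper-Pearson) 95% binomial intervals, differences of shares Newcombe intervals, medians order-statistic intervals and differences of medians Price-Bonett intervals; all cover counting error only. Python 3.11.15, numpy 2.4.6, pandas 2.3.3, scipy 1.17.1 and matplotlib 3.10.9 were used, and the functions were tested on simulated data. The peaks named were the 5 narrowest, the 5 with the largest and the 5 with the smallest gap, 3 on either side of the limit, and the 5 bins with the most members (14 bins tied for the last of these places, so 4 are given). The members and comparisons were chosen with earlier results of these data known. The share within 1 kb, the comparisons by gap class, and those on X and in dense bins were added after seeing the data. The planned naming of genes and printing of sequences was not done, because no mm9 genome was used here.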

Additional observations from a re-analysis of the deposited data

Results flagged for a closer look

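Unplaced sequence, which the comparisons between narrow and wider peaks do not use, held 29 narrow peaks among its 464 peaks (6.25%, 95% binomial interval 4.23 to 8.85), a difference of 1.96 percentage points from the autosomal share (0.07 to 4.55). Of the 29, 21 were on unplaced sequence of chromosome Y (5.45% of its 385 peaks) and 8 on the other 9 unplaced sequences (10.1% of 79, 4.47 to 19). The unplaced Y sequence alone differed from the autosomes by 1.16 points, with an interval that held 0 (-0.72 to 3.91). For the other 9 the difference was 5.83 points (0.92 to 14.4), resting on these 8 peaks. The placed part of chromosome Y held 2 narrow peaks among 40. The level in a control library was not analysed here.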

How the results depend on the processing

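No paired analysis was possible because the series has 1 library of each kind. In all, 68 alternatives were computed for 8 results, 15 of them chosen after seeing the data, and 56 kept the sign of the main difference. The spread by chromosome is highest minus lowest, so its 4 alternatives, counted among the 56, could not change sign. The 10 kb share (5.05 points) turned to -5.08 with peaks closer than 1 kb merged, -3.88 against peaks of 2 to 4 kb, -0.49 within 50 kb and -4.27 for gaps over 1 kb only. Merging and gaps over 1 kb left the same 683 narrow peaks, so they are not separate checks on these. The 10 kb share was 9.23 points within 5 kb and 12.7 against peaks of 6 to 7.5 kb. By midpoint distance, which adds the wider peaks' own width, it was 17.9 points. With the limit at 1500 bp its interval held 0 (4.30, -0.74 to 9.46). The median distance (-2.26 kb) was -4.14 with the limit at 2500 bp, an interval below 0 (-6.17 to -2.12), and 5.43 after merging, 3.07 against 2 to 4 kb, 4.64 for gaps over 1 kb, -5.18 by midpoints and -6.17 against 6 to 7.5 kb. The neighbour's width (-1303 bp) was -550 after merging, -547 against 2 to 4 kb and -803 for gaps over 1 kb, and stayed below 0 in all 9 alternatives. The outer span in 6 to 7.5 kb (12.7 points) was -2.60 against 2 to 4 kb. The 1 kb share (11.3 points) was 0.61 against 2 to 4 kb and 16.9 against 6 to 7.5 kb, and above 0 in all 7 alternatives. The peak-poor share (0.58 points) was 3.4 with the limit at 1500 bp and 2.5 (0.13 to 5.28) after merging, intervals that no longer held 0. For gaps over 1 kb only it was 1.73, with an interval that held 0 (-0.56 to 4.43). It was below 0 in 4 alternatives: -0.07 with the limit at 2500 bp, -0.49 in bins of 2 Mb, -0.03 in a window around the midpoint and -0.16 with at most 2 other peaks. The share with a narrow nearest peak stayed within its main interval in all 7, and against 2 to 4 kb its own interval held 0 (1.56, -0.11 to 3.51). The size of the spread by chromosome stayed within its interval in all 4, but that interval does not allow for the picking of extremes. Adding X and Y, whose shares lay between the extremes, could not change it, and the width limit changes the share itself. The extreme chromosomes changed at 1500 and 2500 bp. Apart from the construction named for midpoints, the cause of these moves was not tested. Read depth, which sets how many weak or short peaks pass the caller, is unknown.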

Other observations

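Near the first peak of a chromosome narrow peaks were less frequent than wider ones. Mouse chromosomes are numbered from the centromere. The first 10 Mb of the span of each autosome held 76 of 944 narrow peaks (8.05%, 6.4 to 9.97) and 2336 of 21041 wider peaks (11.1%, 10.7 to 11.5), a difference of -3.05 percentage points (95% Newcombe interval -4.68 to -1.10). The last 10 Mb held 45 narrow peaks (4.77%) and 4.70% of wider ones, a difference of 0.07 points (-1.15 to 1.64). These regions were chosen after the data had been seen, and no other region was set against them.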
